A study of Homo sapiens with 6 samples.

Results

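The 64 genes described here encode the heat shock proteins of the HSP70, HSP110, HSP90 and small heat shock protein families, the mitochondrial chaperonin, and the J-domain proteins that serve HSP70. They were taken by symbol (HSPA, HSPB, DNAJA, DNAJB and DNAJC followed by a number, with HSPD1, HSPE1, HSPH1, HSP90AA1 and HSP90AB1) from the protein-coding genes of gencode release 44. HSPA5, DNAJB9, DNAJB11, DNAJC2, DNAJC3 and DNAJC10 were left out. They made up 64 of the 60676 genes listed in the expression tables, of which 19892 are annotated as protein-coding. Although most of the products act in the cytosol, several do not. HSPA9, HSPD1, HSPE1, DNAJA3, DNAJC11, DNAJC15, DNAJC19 and DNAJC30 act in mitochondria, and HSPA13, DNAJB12, DNAJB14 and DNAJC1 at the endoplasmic reticulum, so the set is wider than cytosolic chaperones.

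RNA was sequenced from HT29 cells, an established human colorectal adenocarcinoma line, labelled as wild type in all groups. The cells were untreated, depleted of histidine or depleted of tryptophan for 48 h, with 2 libraries for each of the 3 conditions. The medium without histidine was built on RPMI 1640 and that without tryptophan on DMEM F-12, both with dialyzed serum, while the base of the control medium for sequencing is not named. An effect of the base medium and an effect of the missing amino acid therefore cannot be told apart in a comparison with untreated cells. The same holds between the depletions, whose base media differed. Whether the 2 libraries of a condition came from separate cultures is not stated, so the p-values measure only the spread between these libraries, which may be technical.

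HSP70 proteins bind short hydrophobic stretches of unfolded chains in a cycle driven by ATP. J-domain proteins bring clients to HSP70 and trigger ATP hydrolysis, HSP110 proteins release the ADP, and HSP90 takes over part of the clients for late folding steps. Small heat shock proteins hold unfolded proteins without using ATP, and HSPD1 with its lid HSPE1 forms the folding chamber of the mitochondrial matrix. In a heat shock response the transcription factor HSF1 binds heat shock elements, inverted repeats of the unit NGAAN, and raises the inducible members, while HSPA8 and HSP90AB1 are made in unstressed cells as well.

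The libraries held between 46390819 and 64388876 reads on genes. Markers of colon epithelium averaged 10 normalized counts or more for 11 of 11 genes in untreated cells and for 10 of 11 after each depletion, with CDX1 at 0 in both histidine-depleted libraries. The sum of these markers ran from 448913 to 476916 in the untreated, from 583474 to 616625 in the histidine-depleted and from 631944 to 635897 in the tryptophan-depleted libraries. Of the 7 leukocyte and mast cell markers, CD14 alone reached that level, with the sum of the list at 103.8 to 122 in the untreated, 51.5 to 64.1 in the histidine-depleted and 368 to 382 in the tryptophan-depleted libraries. Of the 6 markers of fibroblasts and endothelium, COL1A1 reached it in every group, PECAM1 in untreated and tryptophan-depleted cells and VWF after histidine depletion. VWF gave 7.65 and 3.98 untreated, 42.5 and 40.7 without histidine and 8.54 and 8.24 without tryptophan, while COL1A2 was at 0 in all 6 libraries and the sum of the list ran from 80.4 to 129. Within the colon epithelium list, EPCAM, KRT8, KRT19, KRT20 and CDH1 were higher in both histidine-depleted libraries than in the untreated ones. KRT18, LGALS4, VIL1, CDX1, CDX2 and CDH17 were lower, so the sum hides both directions. KRT8 went from 186625 and 201539 to 320941 and 340439, and LGALS4 from 54147 and 56465 to 17513 and 19660. The part of all these markers in the results was not tested. In bulk RNA, fewer cells of a type and less RNA per cell cannot be told apart. Levels below are normalized counts of the 6 libraries scaled together, while fold changes and tests against untreated cells were made within each deposited table. Joint scaling moved those differences by only -0.0089 and 0.0075 on the log2 scale.

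To show which members carry the DNA sequence that HSF1 is known to bind, the promoter windows of RefSeq on GRCh38.p14 (250 bases before to 50 bases after a start site) were searched for GAANNTTCNNGAA and TTCNNGAANNTTC. These are 3 adjoining units, and each pattern is the reverse complement of the other, so both strands were covered. A window was found for 57 of the 64 genes, and 7 of the 57 (12.3%) held at least 1 such motif. Counted over windows, it was 7 of 76 (9.21%), against 0.490% of the 35116 windows of all genes. The windows with 3 units are written 5′ to 3′ on the strand of the gene, with the motif in capitals.
DNAJA1, chr9:33025268-33025296, plus strand: gccgggcgGAACTTTCCAGAAcgctcggt
DNAJB6, chr7:157336865-157336893, plus strand: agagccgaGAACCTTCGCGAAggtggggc
HSP90AA1, chr14:102087112-102087140, minus strand: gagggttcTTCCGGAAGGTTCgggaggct
HSP90AB1, chr6:44247770-44247798, plus strand: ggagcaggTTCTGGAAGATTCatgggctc
HSP90AB1, chr6:44247823-44247851, plus strand: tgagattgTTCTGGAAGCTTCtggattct
HSPA6, chr1:161524458-161524486, plus strand: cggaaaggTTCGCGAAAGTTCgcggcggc
HSPA8, chr11:123062171-123062199, minus strand: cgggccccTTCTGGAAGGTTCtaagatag
HSPA8, chr11:123062346-123062374, minus strand: gcgagcttGAAAGTTCCAGAAcgctgcgg
HSPD1, chr2:197500062-197500090, minus strand: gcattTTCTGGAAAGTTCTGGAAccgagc
The window of HSPD1 carried 2 overlapping motifs, which makes its run of capitals longer. Those of HSP90AB1 and HSPA8 carried 2 separate ones each. The motif of HSPA6 began 74 bases before the start site and the nearer one of HSPA8 began 55 bases before it.

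A shorter form with 2 units, GAANNTTC or TTCNNGAA, which is contained in the longer motif, was found in the windows of 22 of the 57 genes (38.6%). Counted over windows, it was 23 of 76 (30.3%), against 13.5% of the windows of all genes. In 15 of the 22 genes it occurred without the longer motif. Among these 15 were HSPA9 and DNAJC15, which fell after histidine depletion. The examples below are of inducible members whose values follow, with the 2 units in capitals.
HSPA1A, chr6:31815427-31815455, plus strand: gaaaaccctgGAATATTCccgacctggca
HSPA1B, chr6:31827623-31827651, plus strand: gaaacccctgGAATATTCccgacctggca
DNAJB1, chr19:14517918-14517946, minus strand: cgctcggccaGAAGCTTCtagcatgtctg
DNAJB1, chr19:14518426-14518454, minus strand: gcgggctctgGAAGCTTCcgccggacggg
DNAJB1, chr19:14518456-14518484, minus strand: gggcggggcgGAAGGTTCtggagggggct
DNAJB4, chr1:78004831-78004859, plus strand: gcatttgctgTTCTAGAAagtacagagac
DNAJA4, chr15:78264461-78264489, plus strand: gaacctccgcGAAGGTTCtaggcctttgt
DNAJA4, chr15:78264500-78264528, plus strand: tctccttgcgGAAGCTTCcgccggcgccg
HSPB1, chr7:76302481-76302509, plus strand: cttaacgagaGAAGGTTCcagatgagggc
The element of HSPA1A lies between HSPA1A and HSPA1L, which are transcribed away from each other, and both windows contained it. A match is a stretch of letters and not a measured binding site. HSPH1, whose level changed more than that of most members, held neither motif in its window, and this says only that these letters are not in those 300 bases.

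After histidine depletion, 33 of the 55 members tested had higher and 15 had lower normalized counts (limma, adjusted p under 0.05), and 7 did not pass the test. One of the 33, HSPB8, entered the test only through its level in the histidine-depleted libraries, and without it the counts were 32 and 15 of 54. The share that passed was 87.3% with HSPB8 included, against 77.3% of all 18288 genes tested, of which 39.1% were higher and 38.2% lower. The median log2 fold change of the members was 0.54 (0.52 without HSPB8), against 0.010 over all tested genes. With a log2 fold change of at least 1 in either direction as a further requirement, 18 members were higher and 7 lower (17 and 7 without HSPB8), where 16.4% and 16.1% of all tested genes were. After tryptophan depletion, 25 of 54 tested members were higher and 20 lower, with 9 that did not pass. There the share that passed was 83.3%, against 70.8% of all 17960 tested genes (36.1% higher and 34.8% lower), and the median was 0.14 against 0.013. Changes were smaller, with 4 members higher and 3 lower by at least 1 on the log2 scale, against 10.0% and 10.4% of all genes. Non-overlapping groups are common with 2 libraries each. After histidine depletion both libraries lay above both untreated ones in 37 members (36 without HSPB8) and below them in 17, against 44.6% and 43.5% of all tested genes, and after tryptophan depletion in 28 and 23, against 42.6% and 41.5%.

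**Figure D1:**
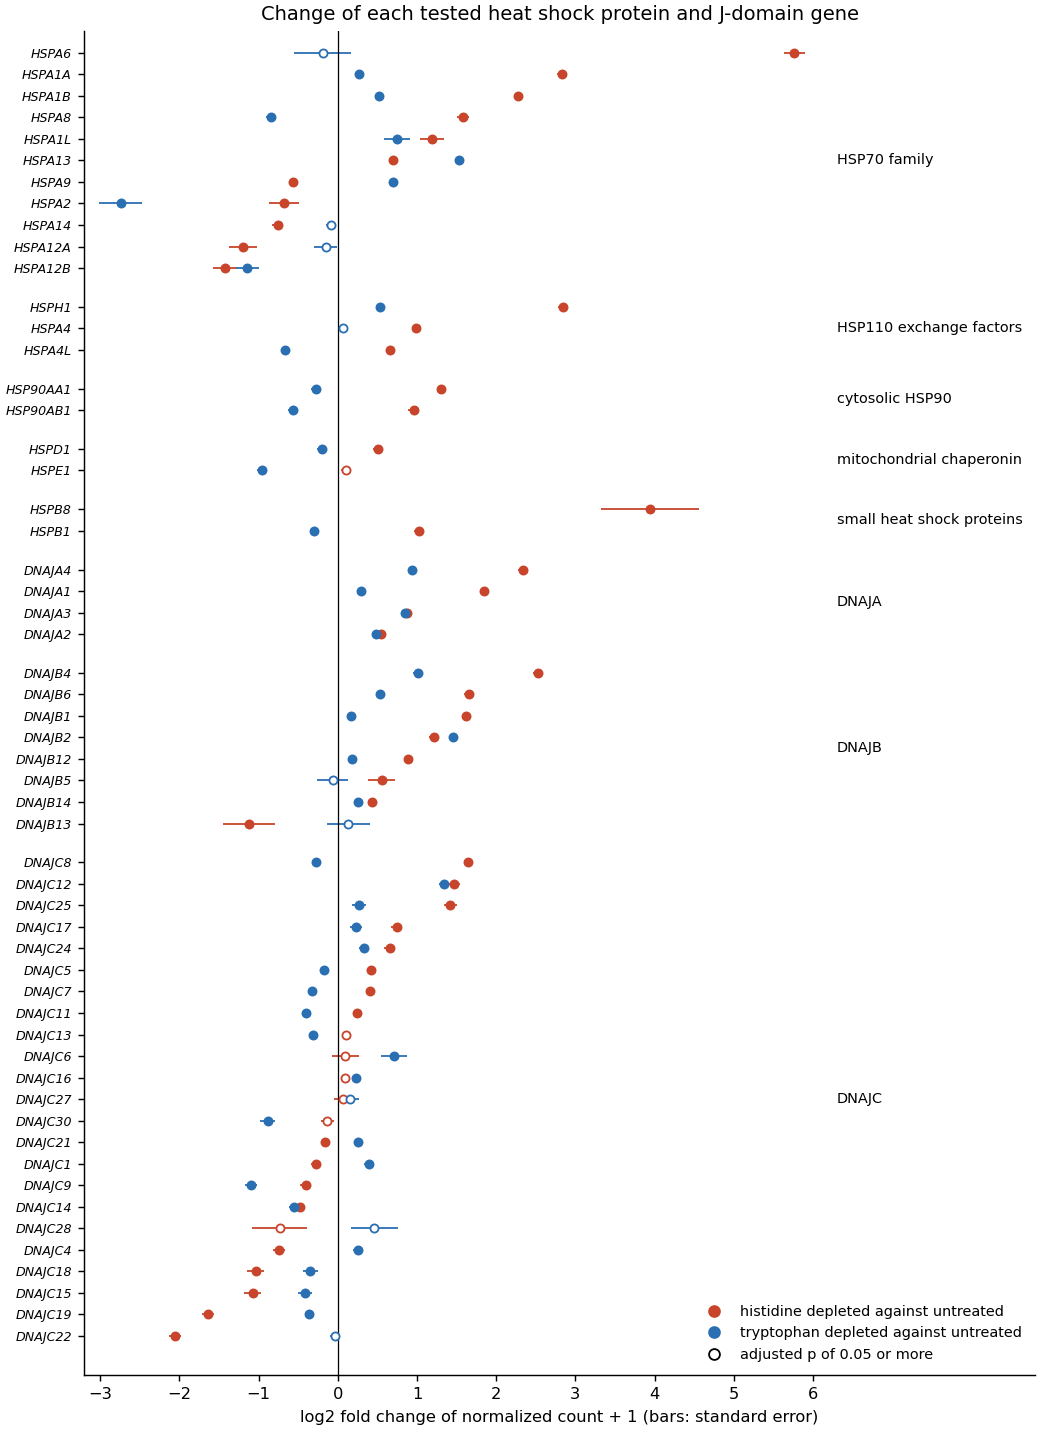
Log2 fold change of normalized count + 1 for each tested gene (horizontal axis), by class, after histidine depletion (red) and tryptophan depletion (blue) against untreated cells, with bars for the standard error and open points for an adjusted p of 0.05 or more. HSPA6 stands at 5.77 after histidine depletion and at -0.19 after tryptophan depletion, and the blue points of HSPA8, HSP90AA1, HSP90AB1 and HSPB1 lie on the other side of 0 from their red ones.

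Among the 11 members of the HSP70 family, 6 rose and 5 fell after histidine depletion, where 39.1% of all tested genes rose and 38.2% fell. HSPA6, a strictly stress-inducible HSP70 on chromosome 1 (chr1:161524540-161526894 of GRCh38), gave 19.7 and 19.9 normalized counts in the untreated libraries. It gave 1116 and 1132 without histidine and 19.2 and 15.6 without tryptophan. Both histidine-depleted libraries thus stood far above the other 4, a 54.5-fold difference from untreated cells (log2 5.77 ± 0.13 SE, adjusted p = 2.21e-21). The change after tryptophan depletion did not pass the test (log2 -0.19, 95% interval -0.90 to 0.52, adjusted p = 0.645). The untreated level rests on 18 and 20 recovered reads and the tryptophan-depleted one on 18 and 17.

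HSPA1A and HSPA1B, the major inducible HSP70 genes, lie next to each other on chromosome 6 (chr6:31815543-31817946 and chr6:31827738-31830254). Their coding sequences share 99.8% of bases, so the division of reads between them is uncertain. HSPA1A gave 2539 and 2917 untreated, 19076 and 19328 without histidine and 3356 and 3248 without tryptophan. HSPA1B gave 1636 and 1723, 8051 and 8095 and 2373 and 2484 in the same order. In both genes the groups did not overlap in any comparison. The increase of HSPA1A was 7.10-fold after histidine depletion (log2 2.83 ± 0.057, adjusted p = 1.69e-22) and 1.21-fold after tryptophan depletion (adjusted p = 1.01e-06). The latter call was lost in limma without the trend (log2 0.27, adjusted p = 0.0708). For HSPA1B it was 4.84-fold (adjusted p = 1.42e-21) and 1.44-fold (adjusted p = 6.64e-17). A further 36.6% of the exonic bases of HSPA1B are shared with another annotated gene on the same strand. HSPA1L, a related gene best known from testis, was low in all libraries (86.3 and 78.6, 181 and 196 and 138 and 142) and rose 2.29-fold and 1.68-fold.

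HSPA8, the constitutive HSP70 of the cytosol, moved in opposite directions. Per kilobase of its transcript it had the highest level of all members in untreated cells, 44948 normalized counts, ahead of HSP90AB1 with 36601 and HSPD1 with 34539. It gave 101679 and 101847 normalized counts untreated, 305750 and 297712 without histidine and 56783 and 57472 without tryptophan. The groups did not overlap, with a 2.98-fold increase (log2 1.58 ± 0.075, adjusted p = 1.76e-15) and a fall to 0.558 of the untreated level (log2 -0.84 ± 0.061, adjusted p = 1.4e-26). Since 17 annotated pseudogenes are named after HSPA8, reads that fit more than 1 of these loci could be assigned differently. How such reads were counted is not stated.

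**Figure D2:**
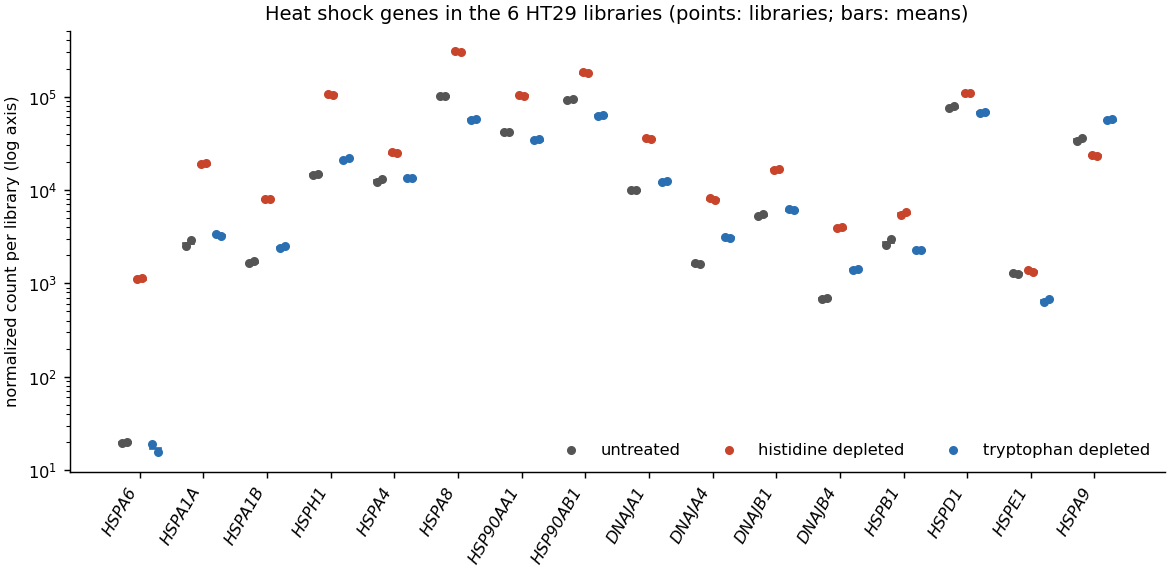
Normalized counts (vertical axis, logarithmic) of 16 genes in each of the 6 libraries, as points with a bar at the mean of the 2 libraries of a condition. HSPA6 lies near 20 in the untreated and tryptophan-depleted libraries and at 1116 and 1132 after histidine depletion, and HSPA9 is the only gene shown whose histidine-depleted libraries lie under the untreated ones. The 16 genes are a selection, and 15 of all 55 tested members were called lower after histidine depletion.

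HSPA9 (mortalin), the HSP70 of the mitochondrial matrix, had the reverse order. It gave 33665 and 35968 untreated, 23482 and 23358 without histidine and 56161 and 57323 without tryptophan. It fell by 0.56 on the log2 scale (adjusted p = 1.58e-09) and rose by 0.70 (adjusted p = 6.65e-24). HSPA13, which is bound to microsomes, rose after both, from 2151 and 2375 to 3732 and 3564 after histidine and to 6498 and 6650 after tryptophan depletion. Its increase of 2.89-fold was the largest fitted for any member after tryptophan depletion (adjusted p = 8.98e-63), against 1.62-fold after histidine depletion.

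The remaining 4 HSP70 genes fell after histidine depletion. HSPA2, known from testis, gave 91.8 and 91.5 untreated, 50.6 and 63.1 without histidine and 10.7 and 15.6 without tryptophan. Here the tryptophan-depleted libraries were the lowest, with a log2 fold change of -2.74 ± 0.27 (adjusted p = 1.68e-17) against -0.68 ± 0.19 after histidine depletion (adjusted p = 0.00265). HSPA12B, a distant family member, fell after both, from 203 and 228 to 74.1 and 84.5 and 106 and 89.7. HSPA12A fell from 139 and 139 to 68.7 and 51.9 after histidine depletion (adjusted p = 1.62e-06) and gave 132 and 119 after tryptophan depletion, which did not pass the test (adjusted p = 0.354). HSPA14, which works with the ribosome-associated J-domain protein DNAJC2, gave 1171 and 1183, 711 and 672 and 1129 and 1096. Its fall after histidine depletion was to 0.591 of the untreated level (adjusted p = 3.65e-10), and the tryptophan difference did not pass (adjusted p = 0.192).

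All 3 HSP110 exchange factors rose after histidine depletion, where 39.1% of all tested genes did. HSPH1, on chromosome 13 (chr13:31134973-31162388), gave 14634 and 14956 untreated, 107377 and 103328 without histidine and 20985 and 22006 without tryptophan. Close to that of HSPA1A, its rise of 7.16-fold (log2 2.84 ± 0.057, adjusted p = 1.26e-22) was the largest among members with over 100 normalized counts in untreated cells, while after tryptophan depletion it was 1.45-fold (adjusted p = 1.07e-19). HSPA4 gave 12308 and 13110, 25254 and 24921 and 13521 and 13290. It rose 1.99-fold after histidine depletion (adjusted p = 1.27e-14), whereas the tryptophan-depleted libraries were higher by 0.070 on the log2 scale, which did not pass (adjusted p = 0.18). Without untreated replicate 2 that difference was 0.12 and passed, and under quantile normalization it was -0.018. HSPA4L gave 3385 and 3611, 5543 and 5455 and 2216 and 2205, a rise of 1.58-fold and a fall to 0.629 of the untreated level (adjusted p = 1.59e-25).

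Both cytosolic HSP90 genes rose without histidine, as did 39.1% of all tested genes, and fell without tryptophan, as did 34.8%. HSP90AA1, the inducible form, gave 41711 and 41894 untreated, 103961 and 101842 without histidine and 33966 and 35325 without tryptophan. HSP90AB1, the constitutive form, gave 92748 and 94285, 181728 and 180187 and 62735 and 63916. The groups did not overlap in either gene. HSP90AA1 rose 2.48-fold (adjusted p = 1.04e-15) and fell to 0.824 of the untreated level (adjusted p = 1.67e-06). For HSP90AB1 the values were 1.95 (adjusted p = 6.59e-12) and 0.674 (adjusted p = 1.55e-15). Without tryptophan-depleted replicate 1 the change of HSP90AA1 after tryptophan depletion was -0.24 on the log2 scale and did not pass (adjusted p = 0.0623).

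The mitochondrial chaperonin genes share a head-to-head locus on chromosome 2. HSPD1 gave 75885 and 79193 untreated, 109727 and 108938 without histidine and 66725 and 69124 without tryptophan. It rose 1.42-fold (adjusted p = 2.01e-07) and fell to 0.872 of the untreated level (adjusted p = 0.00242), a small change whose call was lost without tryptophan-depleted replicate 1 (log2 -0.17, adjusted p = 0.326) or 2 (-0.23, adjusted p = 0.163). HSPE1 gave 1302 and 1250, 1403 and 1313 and 637 and 682, so that the tryptophan-depleted libraries were the low ones. It fell to 0.514 of the untreated level there (adjusted p = 1.42e-28), and the histidine difference of 0.098 on the log2 scale did not pass (95% interval -0.032 to 0.23, adjusted p = 0.157) except under quantile normalization (0.19, adjusted p = 0.016). Pseudogenes are numerous for both, with 18 named after HSPD1 and 26 after HSPE1.

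Of 7 small heat shock proteins, only HSPB1 and HSPB8 passed the filter on low values in a comparison. HSPB1 (HSP27) gave 2598 and 2981 untreated, 5396 and 5833 without histidine and 2268 and 2290 without tryptophan. It rose 2.03-fold (adjusted p = 1.11e-13) and fell to 0.815 of the untreated level (adjusted p = 2.18e-07). The fall was not called in limma without the trend (log2 -0.30, adjusted p = 0.0564). HSPB8, which works with BAG3 in chaperone-assisted autophagy, rested on 0 and 7 reads in the untreated, 40 and 49 in the histidine-depleted and 4 and 6 in the tryptophan-depleted libraries. Its normalized counts after histidine depletion, 36.1 and 49.9, lay above those of the other 4 libraries. The filter on low values removed HSPB8 from the comparison of tryptophan-depleted with untreated cells, while its level after histidine depletion alone let it pass in the others. A gene that passes in this way had to differ, so its values are given as a description with no test. Counts under the alternatives include it where it was tested.

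All 4 DNAJA genes rose after both depletions, and of 8 tested DNAJB genes 7 rose after histidine and 6 after tryptophan depletion, where 39.1% and 36.1% of all tested genes rose. DNAJA1, the main J-domain partner of its class in the cytosol, gave 9888 and 9990 untreated, 36072 and 35096 without histidine and 12139 and 12355 without tryptophan. The rise was 3.60-fold (adjusted p = 5.51e-20) and 1.23-fold (adjusted p = 1.12e-08). DNAJA4 gave 1632 and 1592, 8268 and 7894 and 3130 and 3083, with rises of 5.04-fold and 1.92-fold. The 2 others rose after both depletions, and neither passed in the direct comparison. DNAJA3, the mitochondrial member, gave 6454 and 6868, 12130 and 12170 and 12128 and 11996. DNAJA2 gave 4513 and 4819, 6855 and 6667 and 6547 and 6605. Between the depletions DNAJA3 differed by 0.011 on the log2 scale (95% interval -0.045 to 0.066) and DNAJA2 by 0.040 (95% interval -0.024 to 0.10). Under quantile normalization both were called lower after histidine depletion (-0.16, adjusted p = 0.000159, and -0.080, adjusted p = 0.0237), so no direction is given.

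DNAJB1 (HSP40), the J-domain protein of the classical heat shock response, gave 5322 and 5592 untreated, 16442 and 16798 without histidine and 6223 and 6101 without tryptophan. It rose 3.06-fold (adjusted p = 4.3e-19) and 1.12-fold (adjusted p = 0.000828). The call after tryptophan depletion was lost without tryptophan-depleted replicate 1 (log2 0.16, adjusted p = 0.0724) and in limma without the trend (adjusted p = 0.0674). DNAJB4 gave 688 and 696, 3934 and 3976 and 1393 and 1424, the largest rise of any J-domain gene after histidine depletion at 5.75-fold (adjusted p = 1.39e-21) and 2.02-fold after tryptophan depletion (adjusted p = 8.44e-32). DNAJB6, which holds back the aggregation of polyglutamine proteins, gave 4122 and 4470, 13637 and 13177 and 6254 and 6249, rises of 3.14-fold and 1.45-fold. DNAJB2 and the scarce DNAJB13 were the 2 DNAJB genes called lower after histidine than after tryptophan depletion. DNAJB2 gave 2143 and 2242, 4963 and 5111 and 6070 and 6025. Its rises were 2.31-fold (adjusted p = 2.51e-16) and 2.74-fold (adjusted p = 1.36e-60).

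The other DNAJB genes changed less or were scarce. DNAJB12 and DNAJB14, J-domain proteins in the membrane of the endoplasmic reticulum, rose by 0.89 and 0.43 on the log2 scale after histidine depletion and by 0.18 and 0.25 after tryptophan depletion. The tryptophan call of DNAJB12 was lost without tryptophan-depleted replicate 1 (log2 0.17, adjusted p = 0.0505). DNAJB5 rose by 0.56 after histidine depletion from 72.1 and 81.6 to 110.2 and 115 normalized counts. DNAJB13, a protein of sperm flagella, fell from 36.1 and 30.8 to 11.8 and 18.3. After tryptophan depletion DNAJB13 gave 44.8 and 30.2. Both histidine calls were lost with DESeq2 (adjusted p = 0.0713 and 0.0598). Against untreated cells neither gene passed after tryptophan depletion, and the sign of their differences depended on the library left out.

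Among 23 tested DNAJC genes, 8 (34.8%) rose and 9 (39.1%) fell after histidine depletion, where 39.1% of all tested genes rose and 38.2% fell. After tryptophan depletion 9 (39.1%) rose and 11 (47.8%) fell, against 36.1% and 34.8%. The shares were thus near the background after histidine depletion, and the DNAJC genes were not tested against the other classes. DNAJC8, which associates with the splicing machinery, rose most after histidine depletion. It gave 4080 and 4230 untreated, 13102 and 12709 without histidine and 3425 and 3501 without tryptophan, a 3.12-fold rise (adjusted p = 2.88e-19) and a fall to 0.829 of the untreated level (adjusted p = 2.87e-07). DNAJC12, the co-chaperone of the aromatic amino acid hydroxylases, rose after both, with 592 and 719, 1742 and 1848 and 1670 and 1664. Its rises were 2.76-fold (adjusted p = 1.1e-14) and 2.54-fold (adjusted p = 1.27e-42). DNAJC25 gave 334 and 373, 948 and 935 and 430 and 425, where 13.7% of its exonic bases are shared with a readthrough gene. DNAJC17 and DNAJC24, the latter needed for diphthamide synthesis, rose by 0.74 and 0.66 on the log2 scale after histidine depletion and by 0.23 and 0.33 after tryptophan depletion. DESeq2 did not call the tryptophan changes of DNAJC17 (adjusted p = 0.0633) and DNAJC25 (adjusted p = 0.0991). Those calls were also lost without tryptophan-depleted replicate 2 for DNAJC17 (log2 0.22, adjusted p = 0.0539) and without untreated replicate 1 for DNAJC25 (0.19, adjusted p = 0.069).

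DNAJC22 fell most after histidine depletion, from 1832 and 2029 to 419 and 506, or to 0.241 of the untreated level (adjusted p = 3.23e-17). After tryptophan depletion it gave 1898 and 1872, inside the range of the untreated libraries, and it passed only without untreated replicate 1 (log2 -0.11, adjusted p = 0.0379). The next fall after histidine depletion was that of DNAJC19, which encodes a protein of the inner mitochondrial membrane. DNAJC19 gave 1354 and 1525, 436 and 483 and 1177 and 1079, falling to 0.322 (adjusted p = 1.31e-15) and 0.780 (adjusted p = 6.86e-08) of the untreated level. DNAJC15, of the same membrane, gave 472 and 529, 221 and 249 and 352 and 403, with falls to 0.474 and 0.750. DNAJC18 gave 366 and 393, 176 and 190.3 and 301 and 298. DNAJC4 gave 928 and 879, 518 and 557 and 1126 and 1043, falling to 0.598 and rising 1.19-fold. Of DNAJC19, 9 pseudogenes are annotated under its name.

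After tryptophan depletion the largest falls among the DNAJC genes were those of DNAJC9 and DNAJC30. DNAJC9, a co-chaperone of histones H3 and H4, gave 1030 and 1064 untreated, 811 and 762 without histidine and 477 and 507 without tryptophan, a fall to 0.468 of the untreated level (adjusted p = 2.21e-30) against 0.756 (adjusted p = 1.15e-05). Because 56.5% of its exonic bases lie opposite FAM149B1 and the use of strand in counting is not stated, reads of the 2 genes cannot be told apart there. DNAJC30, a mitochondrial protein, gave 506 and 519, 455 and 474 and 281 and 276. It fell to 0.542 after tryptophan depletion (adjusted p = 2.33e-16), while the histidine difference did not pass (adjusted p = 0.151). DNAJC14 gave 1595 and 1656, 1157 and 1157 and 1145 and 1080, falling by 0.48 and 0.55 on the log2 scale, and overlaps other genes on both strands. DNAJC6 (auxilin), which uncoats clathrin vesicles, rose by 0.71 after tryptophan depletion, from 91.8 and 83.5 to 157 and 134, and gave 85.8 and 101 after histidine depletion.

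Smaller changes were seen in the other DNAJC genes. DNAJC5 (cysteine string protein), DNAJC7, which binds both HSP70 and HSP90, and DNAJC11 of the mitochondrial cristae rose by 0.42, 0.41 and 0.24 on the log2 scale after histidine depletion. After tryptophan depletion they fell by 0.18, 0.33 and 0.40. DNAJC1, of the endoplasmic reticulum membrane, and DNAJC21, a factor of the large ribosomal subunit, fell by 0.28 and 0.16 and rose by 0.39 and 0.25. DNAJC13 of endosomes fell by 0.31 and DNAJC16 rose by 0.23 after tryptophan depletion, and neither passed after histidine depletion. The histidine difference of DNAJC13 (log2 0.10) did pass with edgeR, with the replicate block and without untreated replicate 2 (0.14, adjusted p = 0.00959), and was negative under quantile normalization. DNAJC27 and DNAJC28 passed in neither comparison. DNAJC28 gave 22.9 and 24.9 untreated, 17.2 and 11.2 without histidine and 32.0 and 34.8 without tryptophan, and its histidine difference (log2 -0.73, adjusted p = 0.0593) passed in 4 alternatives, among them the leaving out of histidine-depleted replicate 1 (-1.02, adjusted p = 0.0304). Its tryptophan difference passed in limma without the trend (0.46, adjusted p = 0.015). The tryptophan call of DNAJC5 was lost without tryptophan-depleted replicate 2 (log2 -0.15, adjusted p = 0.13), and the histidine call of DNAJC21 without histidine-depleted replicate 1 (-0.17, adjusted p = 0.0578) or 2 (-0.14, adjusted p = 0.13).

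When both depletions were compared directly, 34 of 55 members were higher under histidine depletion than under tryptophan depletion and 16 were lower (limma, adjusted p under 0.05). The missing amino acid and the base medium (RPMI 1640 or DMEM F-12) cannot be told apart in this comparison. The members called, HSPB8 included, were 90.9% of those tested, against 78.3% of all 18276 genes tested, with 39.9% higher and 38.4% lower. The groups did not overlap in 37 members that were higher (36 without HSPB8) and 18 that were lower, against 45.2% and 43.6% of all genes. The median difference was 0.58 on the log2 scale (0.54 without HSPB8), against 0.018 over all genes. Without HSPB8, which passed the filter through its histidine-depleted libraries alone, the counts were 33 and 16 of 54. Among those 54 the largest differences were those of HSPA6 (5.94 ± 0.14, adjusted p = 2.75e-12), HSPA1A (2.54 ± 0.029, adjusted p = 3.61e-14), HSPA8 (2.40 ± 0.024, adjusted p = 1.74e-14) and HSPH1 (2.29 ± 0.029, adjusted p = 6.66e-14). On the lower side stood DNAJC22 (-2.03), DNAJC19 (-1.29), HSPA9 (-1.28), DNAJB13 (-1.27), DNAJC28 (-1.21), HSPA12A (-1.06) and DNAJC4 (-1.01). All 3 HSP110 genes, both HSP90 genes, both chaperonin genes and HSPB1 were higher after histidine depletion. Of the 23 DNAJC genes, 11 (47.8%) were higher and 10 (43.5%) lower. DNAJC12 differed by 0.11 (95% interval 0.011 to 0.20, adjusted p = 0.0422). That call was lost in 9 alternatives, among them edgeR (adjusted p = 0.0953), DESeq2 (0.237) and the leaving out of histidine-depleted replicate 2 (0.064, adjusted p = 0.224), tryptophan-depleted replicate 1 (0.11, adjusted p = 0.129) or 2 (0.10, adjusted p = 0.146).

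In 14 of the 54 members tested in all 3 comparisons, the depletions were called in opposite directions and also differed from each other, against 18.3% of 17147 genes. Of the 14, 10 were higher after histidine and lower after tryptophan depletion, namely HSPA8, HSPA4L, HSP90AA1, HSP90AB1, HSPD1, HSPB1, DNAJC5, DNAJC7, DNAJC8 and DNAJC11. HSPA9, DNAJC1, DNAJC4 and DNAJC21 had the reverse pattern. Both comparisons share the untreated libraries. In limma without the trend 1 of the 2 calls was lost for HSPB1, HSPD1 and DNAJC5 (after tryptophan depletion) and for DNAJC21 (after histidine depletion).

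All 7 members whose window held the 3-unit motif were higher after histidine depletion, with a median log2 fold change of 1.58 and a range from 0.51 for HSPD1 to 5.77 for HSPA6. After tryptophan depletion 2 of them, DNAJA1 and DNAJB6, rose, 4 fell and HSPA6 did not pass, with a median of -0.20. Of all tested genes 39.1% were higher and 38.2% lower without histidine, and 36.1% and 34.8% without tryptophan. With the 2-unit motif alone, 9 of 12 tested genes were higher and 2 lower after histidine depletion (median 1.40), and 8 of 11 were higher and 3 lower after tryptophan depletion (median 0.52). Without HSPB8, 8 of 11 were higher and 2 lower after histidine depletion (median 1.19). In the 31 tested genes with neither motif, 16 were higher and 9 lower after histidine depletion (median 0.24), and 13 were higher and 12 lower after tryptophan depletion (median 0.13). Another 5 tested genes had no entry in the table of windows, with 1 higher and 4 lower after histidine depletion (median -0.76) and 2 higher and 1 lower after tryptophan depletion (median -0.040). A gene was placed by its own window only. The motif of HSPD1 also lies before the annotated start of HSPE1 (chr2:197500140, plus strand), which was counted among the genes with neither motif. HSPE1 did not pass after histidine depletion (log2 0.098, limma, adjusted p = 0.157). The counts by motif were not tested against each other. The genes are related to each other, and the motif was chosen with their changes known.

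The sum of the 64 genes took 0.946% ± 0.0016 (SD, n = 2) of all reads in untreated cells, 1.84% ± 0.030 after histidine depletion and 0.816% ± 0.0066 after tryptophan depletion. HSPA8 alone accounted for 0.198% ± 0.0042, 0.517% ± 0.012 and 0.105% ± 0.00064 of the reads in these groups. The HSP110 genes went from 0.0602% ± 0.00052 to 0.233% ± 0.0066 and 0.0682% ± 0.00085, and the cytosolic HSP90 genes from 0.263% ± 0.0035 to 0.486% ± 0.0069 and 0.180% ± 0.0028. The DNAJA genes rose in share after both depletions, from 0.0444% ± 8.5e-05 to 0.107% ± 0.0024 and 0.0625% ± 2.8e-05. The DNAJC genes together took 0.100% ± 0.0016, 0.112% ± 7.1e-05 and 0.0888% ± 0.0014. A share of reads depends on the other genes of the library and was not tested.

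The share of histidine and tryptophan codons in the members was computed from the canonical transcripts of gencode. The 64 members had a median of 1.98% histidine codons, against 2.44% in 13159 protein-coding genes tested, and 0.629% tryptophan codons against 1.08%. The 64 include the 9 members tested in no comparison, while the 13159 are tested genes only, so the sets are not alike. The 25 heat shock protein genes were lower (1.64% and 0.358%) than the 39 J-domain genes (2.15% and 0.838%). HSPE1 has neither codon, and DNAJA1, DNAJC7, DNAJC19, HSPA14 and HSPB7 have no tryptophan codon. Across 55 members, HSPB8 included, the histidine codon share and the log2 fold change after histidine depletion gave r = -0.178 (Spearman -0.227). The tryptophan pair gave r = -0.002 (-0.074) over 54 genes. These are descriptions over related genes from the same libraries.

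The minimum mean of 10 left 9 members out of all 3 comparisons. With no filter, 61 members were compared after histidine depletion (34 higher, 15 lower), 62 after tryptophan depletion (25 and 20) and 63 between the depletions (34 and 16). DNAJB8, DNAJC5B, DNAJC5G, HSPB2, HSPB3 and HSPB7 had at most 3 reads in every library, and HSPB2 had none at all. DNAJB7 and HSPB9 had at most 7 reads. HSPB6, which lies near the limit, had 3 and 0 reads untreated, 10 and 14 without histidine and 1 and 2 without tryptophan. A count of 0 allows up to 3 reads in a library, by counting error only, so these genes were at or near the limit of detection at this depth.

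Finally, 52 genes that work with the members were examined, of which 51 were tested. After histidine depletion 30 rose and 17 fell, and after tryptophan depletion 17 rose and 20 fell, against the shares of all genes given above. HSF1, the transcription factor of the heat shock response, gave 6513 and 7000 untreated, 12836 and 13649 without histidine and 7368 and 7551 without tryptophan. It rose 1.97-fold (adjusted p = 1.69e-14) and 1.10-fold (adjusted p = 0.00693). The latter call was lost without tryptophan-depleted replicate 1 (log2 0.16, adjusted p = 0.0784) or 2 (0.11, adjusted p = 0.23), without the trend (adjusted p = 0.147) and under quantile normalization (adjusted p = 0.0816). HSF2 passed in neither comparison (609.9 and 656, 558 and 573 and 636 and 613), although it was called lower after histidine depletion without untreated replicate 1 (log2 -0.21, adjusted p = 0.041), with edgeR (adjusted p = 0.0472) and in the fit on all 6 libraries (adjusted p = 0.047). HSF4 gave 819 and 675, 594 and 677 and 1724 and 1796. It rose after tryptophan depletion (log2 1.23, adjusted p = 5.38e-40) and was called lower after histidine depletion (log2 -0.22, adjusted p = 0.0256), although the groups overlapped. The latter call was lost in 6 alternatives, among them the leaving out of untreated replicate 1 (-0.085, adjusted p = 0.415) or histidine-depleted replicate 1 (-0.13, adjusted p = 0.249). HSBP1, which binds HSF1 and restrains it, gave 4944 and 5396, 4266 and 4305 and 3745 and 3586, falling by 0.26 (adjusted p = 0.000105) and 0.50 (adjusted p = 2.13e-18) on the log2 scale.

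Of all tested genes, 39.1% rose and 38.2% fell without histidine, and 36.1% rose and 34.8% fell without tryptophan. Among 11 HSP70 co-chaperones, 8 rose and 3 fell after histidine depletion, and 7 rose and 1 fell after tryptophan depletion. BAG3 gave 2570 and 2590 untreated, 5422 and 5412 without histidine and 3551 and 3747 without tryptophan, rises of 2.11-fold and 1.41-fold. HSPBP1, an exchange factor, moved in opposite directions, with 3348 and 3838, 10017 and 10413 and 1301 and 1309 (log2 1.52 and -1.46). GRPEL1, an exchange factor of HSPA9, gave 3847 and 4111, 12079 and 12077 and 3862 and 3854, a rise after histidine depletion (log2 1.61, adjusted p = 6.01e-19), where HSPA9 itself fell, and a tryptophan difference that did not pass (adjusted p = 0.344). GRPEL2, of the same list, changed in the directions of HSPA9. It fell after histidine depletion (log2 -0.32, adjusted p = 7.96e-06) and rose after tryptophan depletion (0.45, adjusted p = 6.18e-16). Of 15 HSP90 co-chaperones, 10 rose and 3 fell after histidine depletion, and 4 rose and 8 fell after tryptophan depletion. CHORDC1 gave 2796 and 2863, 11556 and 11120 and 3174 and 3366, and TOMM34 gave 7099 and 7256, 26390 and 26002 and 5820 and 5946. CACYBP gave 4595 and 4650, 5369 and 5362 and 1526 and 1482, with the largest fall of the list after tryptophan depletion (log2 -1.63, adjusted p = 3.8e-64).

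Of the 8 subunits of the cytosolic chaperonin TRiC, 4 rose and 4 fell after histidine depletion. After tryptophan depletion 5 fell and 3 did not pass. The shares of all tested genes were 39.1% higher and 38.2% lower without histidine, and 36.1% and 34.8% without tryptophan. CCT3 gave 27039 and 27800, 46333 and 46893 and 13569 and 13582, and CCT4 gave 10472 and 11678, 5925 and 6118 and 11319 and 11318. Of the 6 subunits of prefoldin, which hands chains to TRiC, 5 rose after histidine depletion, led by PFDN2 (3074 and 3421, 10832 and 10976 and 4345 and 4412). After tryptophan depletion 1 of the 6 rose and 2 fell. SERPINH1 (HSP47), the collagen chaperone, gave 5214 and 5131, 22413 and 22392 and 5329 and 5374 (log2 2.12 after histidine depletion, adjusted p = 1.79e-21). TRAP1, the HSP90 of mitochondria, fell after both, from 9238 and 9293 to 2972 and 3094 and 6158 and 6048 (log2 -1.60 and -0.61). HSP90B1, the HSP90 of the endoplasmic reticulum, rose after both, with 36697 and 37841, 47002 and 45449 and 64828 and 66511.

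**Figure D3:**
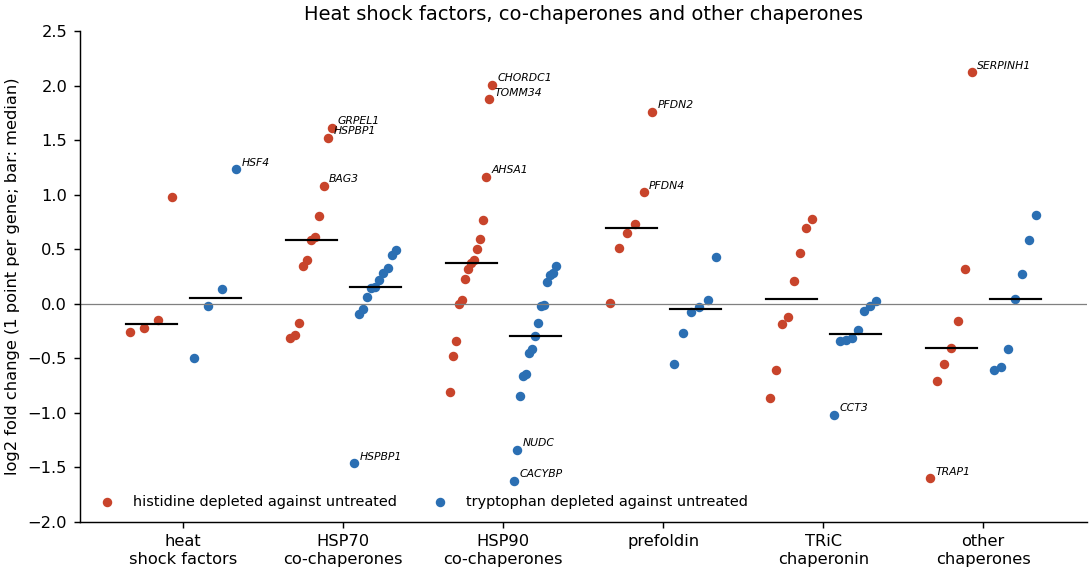
Log2 fold change (vertical axis, 1 point per gene, bar at the median of the list) of heat shock factors, co-chaperones and other chaperones after histidine depletion (red) and tryptophan depletion (blue), with the genes that changed by at least 1 on the log2 scale named. SERPINH1, CHORDC1 and TOMM34 lie highest after histidine depletion, at 2.12, 2.01 and 1.88, and CACYBP lowest after tryptophan depletion, at -1.63.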

How the data were processed

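RNA-seq of 6 HT29 libraries was used, 2 for each of untreated, histidine-depleted and tryptophan-depleted cells at 48 h, grouped by their titles. Libraries were made from polyadenylated RNA with a stranded kit and adapters carrying molecular identifiers. As the paper's methods and the submitters' processing notes give it, the authors aligned reads with STAR 2.7.10a to GRCh38, obtained counts per gene over exons from HTSeq 2.0.5 with gencode 38, and scaled them with DESeq2. They deposited the result as 1 table of normalized counts per depletion (a signal that is never negative), each with the same untreated libraries. The use of molecular identifiers, of strand and of reads with several matches is not given in the sources used here. PCR duplicates and reads shared by related genes could therefore affect the counts.

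Each value was divided by the step common to its library, and 100% of the quotients were whole reads (within 0.01 of a whole number). Symbols, types and coordinates were taken from gencode release 44, in which 60357 of 60676 identifiers were found. Levels were put on a common scale by median-of-ratios size factors over all 6 libraries, and divided by the length of the canonical transcript where genes were compared with each other.

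Differences were tested with limma 3.58.1 in R 4.3.3 (mean-variance trend, two-sided) on log2(normalized count + 1), over all genes with a mean of at least 10 in the libraries compared, with Benjamini-Hochberg adjustment over all of them and a threshold of 0.05. Fold changes are on this scale, which understates those of low genes. Each depletion was tested against the untreated libraries of its own table, and both depletions were compared on the jointly scaled counts. Intervals are at 95%. The members, the lists of partner and marker genes and the alternatives were chosen with earlier results of these data known.

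Library values are given for the 8 largest increases and decreases per comparison among members past the threshold, where groups did not overlap and the higher one averaged 100 normalized counts or more, and for 19 members fixed by name. Others were added where a class would have been incomplete. Of the partner genes, HSF1, HSF2, BAG3 and up to 2 genes of each list with the largest change were eligible. As alternatives, the pseudocount was set to 0.5 or 8, the filter was dropped or raised to 50, the trend was switched off, values were quantile normalized, the recovered reads were tested with edgeR 4.0.16 and DESeq2 1.42.0, the replicate number was added as a block, all 6 libraries were fitted together, a log2 fold change of 1 was required, and each library was left out in turn. With 1 library left in a group, that library was assumed to vary like the others. The fits were tested on simulated counts. Promoter windows were from RefSeq. Python 3.11.15, pandas 2.3.3 and numpy 2.4.6 were used for tables.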

Additional observations from a re-analysis of the deposited data

Results flagged for a closer look

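In 14 members the change after histidine depletion differed in sign from that after tryptophan depletion, both past the threshold, and the direct difference between the depletions passed as well (limma, adjusted p under 0.05). The share of all genes tested that met these conditions was 18.3%, and both changes use the same untreated libraries. In the 14 members every library of one depletion also lay above both of the other, which was not required for the 18.3%. The depletions also differed in base medium, which cannot be told apart from the missing amino acid. The direct differences, as log2 of histidine over tryptophan depletion, were 2.40 for HSPA8, 1.90 for DNAJC8, 1.57 for HSP90AA1, 1.51 for HSP90AB1, 1.31 for HSPA4L, 1.30 for HSPB1, 0.72 for DNAJC7, 0.69 for HSPD1, 0.62 for DNAJC11 and 0.58 for DNAJC5. They were -1.28 for HSPA9, -1.01 for DNAJC4, -0.68 for DNAJC1 and -0.43 for DNAJC21. HSPA9 and HSPD1, which both work in the mitochondrial matrix, were thus on opposite sides. For HSP90AA1, HSPD1, DNAJC5 and DNAJC21, 1 of the 2 changes against untreated cells lost its call when a library was left out, as given above, and for HSPB1, HSPD1, DNAJC5 and DNAJC21 in limma without the trend. Groups of 2 libraries are too small for a test of single outlying libraries.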

How the results depend on the processing

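For single genes, 173 results kept their direction and their side of the threshold under every alternative run and 34 did not. Counts of members past the threshold stayed within 1.5 times the reported ones under all of these but 1. Requiring a log2 fold change of 1 or more in size, they became 18 higher and 7 lower after histidine depletion, 4 and 3 after tryptophan depletion, and 19 and 7 between the depletions. The share of all tested genes past that limit was 16.4% and 16.1%, 10.0% and 10.4%, and 16.4% and 15.7% in the same order. For partner genes that limit gave 9 and 1, 1 and 4, and 11 and 2, and limma without the trend gave 11 lower after histidine and 11 higher after tryptophan depletion. With a library left out, and HSPB8 included where it was tested, 33 to 34 members were higher and 14 to 15 lower after histidine depletion, 23 to 26 and 18 to 21 after tryptophan depletion, and 33 to 34 and 16 between the depletions. The same replicate numbers did not deviate together (correlations 0.059, 0.015 and -0.055 over 16170 genes). Whether they pair the libraries is not stated in the labels and cannot be settled by these values. A replicate block gave 34 and 15, 25 and 20, and 34 and 16 members.

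Reversals concerned differences that had not passed, of which DNAJA2 and DNAJA3 were called in the reversed direction. Quantile normalization gave -0.070 for DNAJC13, 0.10 for DNAJC30 and 0.057 for HSF2 after histidine depletion, and 0.0064 for DNAJC22, 0.10 for HSF2, 0.0029 for HSPA14 and -0.018 for HSPA4 after tryptophan depletion. Between the depletions it gave -0.080 for DNAJA2 (adjusted p = 0.0237), -0.16 for DNAJA3 (adjusted p = 0.000159) and 0.027 for DNAJC27, and edgeR gave -0.014 and DESeq2 -0.0039 for DNAJA3. Quantile normalization lowered the median of the members after histidine depletion, HSPB8 included, from 0.54 to 0.36. With a library left out, DNAJC6 ran from -0.017 to 0.21 after histidine depletion. After tryptophan depletion DNAJB13 ran from -0.14 to 0.40, DNAJB5 from -0.16 to 0.028, DNAJC22 from -0.11 to 0.034 and HSF2 from -0.078 to 0.026. The causes were not tested. Few reads were counted for HSPB8 and the 9 members not tested, and 2 libraries per group limited every comparison.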
